A study of Mus musculus with 6 samples.

Results

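The small proline-rich (Sprr) family was followed in the epidermis of newborn Znf750 knockout and control mice. Its 10 members here were Sprr1a, Sprr1b, Sprr2a1, Sprr2a3, Sprr2d, Sprr2h, Sprr2i, Sprr2k, Sprr3 and Sprr4, found by matching the Ensembl gene identifiers of the deposited values to these mouse symbols. They are 10 of the 17 Sprr genes annotated in the mouse and 10 of the 55487 genes with a value. Messenger RNA was sequenced in 6 libraries, 3 labelled Znf750 cKO and written Znf750_cKO below, and 3 labelled Control, all from back skin epidermis taken on postnatal day 0. Each level is in FPKM, fragments counted per kilobase of transcript and divided by the mapped total of the library, so that genes of different length can be set side by side within a library. No source used here gives the strain, the driver of the conditional knockout, the alleles that the controls carry or whether each library came from its own animal. The p-values therefore measure the spread between these libraries, which may be technical.

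SPRR proteins are small precursors of the cornified envelope, the protein shell that replaces the plasma membrane of keratinocytes as they die at the skin surface. Transglutaminases tie them to loricrin, involucrin and each other through glutamine and lysine residues at their ends, while a proline-rich repeat lies between as a spacer. The genes lie together in the epidermal differentiation complex, are switched on late in differentiation, and several rise when the skin barrier is stressed or inflamed. ZNF750, known in mouse as Zfp750, is a zinc finger factor of terminal epidermal differentiation.

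Sprr1b rose in Znf750_cKO epidermis by 5.86-fold, while Sprr1a had a lower level in every Znf750_cKO library than in any Control library without passing the test. Sprr2d rose 3.35-fold, and Sprr4, present in the 3 Control libraries, was listed at 0 in all 3 Znf750_cKO libraries. Sprr2a1, Sprr2a3 and Sprr2h did not pass the test, and Sprr2i, Sprr2k and Sprr3 were too low to be tested. A gene was called as changed where limma, run on log2(FPKM + 1) over the 13688 genes with at least 1 FPKM in at least 3 libraries, gave an adjusted p under 0.05.

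The promoters of the Sprr1 pair, whose levels lay on opposite sides of Control, of Sprr2d, which rose, and of its relative Sprr2h, which did not pass, are given to show what lies upstream of them. The sequences are RefSeq's, build GRCm38.p6, from 250 to 21 bases before the annotated start and in the direction of the gene. Capitals mark matches to TGANTCA, a motif bound by the AP-1 (Fos and Jun) factors; the motif reads the same on both strands. The windows lie at chr3:92485902-92486131 on the minus strand for Sprr1a, chr3:92438800-92439029 on the minus strand for Sprr1b, chr3:92338890-92339119 on the plus strand for Sprr2d and chr3:92385435-92385664 on the plus strand for Sprr2h.
Sprr1a: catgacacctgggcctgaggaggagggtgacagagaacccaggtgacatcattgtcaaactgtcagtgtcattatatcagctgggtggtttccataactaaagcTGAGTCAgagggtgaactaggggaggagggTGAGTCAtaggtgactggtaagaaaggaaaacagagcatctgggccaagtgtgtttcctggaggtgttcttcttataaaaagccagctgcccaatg
Sprr1b: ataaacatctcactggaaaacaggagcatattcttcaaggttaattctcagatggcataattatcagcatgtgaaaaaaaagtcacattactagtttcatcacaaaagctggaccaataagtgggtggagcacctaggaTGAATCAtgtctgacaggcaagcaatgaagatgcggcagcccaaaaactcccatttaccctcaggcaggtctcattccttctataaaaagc
Sprr2d: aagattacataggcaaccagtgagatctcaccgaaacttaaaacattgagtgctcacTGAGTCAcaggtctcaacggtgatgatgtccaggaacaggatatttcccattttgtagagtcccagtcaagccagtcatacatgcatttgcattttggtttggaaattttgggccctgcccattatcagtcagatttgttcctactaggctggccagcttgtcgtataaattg
Sprr2h: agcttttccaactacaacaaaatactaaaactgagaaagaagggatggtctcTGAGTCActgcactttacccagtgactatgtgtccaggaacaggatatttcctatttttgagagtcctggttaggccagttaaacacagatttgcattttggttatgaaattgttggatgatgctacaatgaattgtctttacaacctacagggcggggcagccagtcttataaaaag

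The match began at position -146 and again at -116 in Sprr1a, at -111 in Sprr1b, at -193 in Sprr2d and at -198 in Sprr2h, counted back from the base before the start as -1. Of the 10 member windows, 6 held at least 1 match, against 6.34% of the 32851 windows of the same length in the reference. In Sprr2i and Sprr2k the first match began at -193 and -196, close to those of Sprr2d and Sprr2h. Windows of such related genes are not independent, so these shares are no test of enrichment. The match was present in members that rose, in Sprr1a, which was lower, and in Sprr2h, which did not pass the test. Sprr2a1, Sprr2a3, Sprr3 and Sprr4 had none in this window. CCNNAGGC, a motif reported for human ZNF750, was searched on both strands and occurred 1 time each in the windows of Sprr1a and Sprr1b and in no other member, against 18.8% of all windows. Of the other motifs searched on both strands, the Ets core GGAA was in 10 of the 10 member windows (91.9% of all windows), the Klf motifs GGGNGGGG and CACCC in 2 (27.8%) and 4 (49.2%), and the Nrf2 motif TGACNNNGC in 1 (9.19%). A match is a string of letters and does not show that a factor binds there.

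Before the members, the targeted gene and the libraries were checked. Zfp750 had 0.99, 0.83 and 1.47 FPKM in the Znf750_cKO libraries, against 44.8, 32.0 and 34.9 FPKM in the Control libraries (limma log2 change -4.19, adjusted p = 4.6e-05), so the labels and the transcript go the same way. Keratinocyte markers (Krt5, Krt14, Krt1, Krt10, Lor, Flg, Trp63, Dsp) were abundant in every library and 0 of the 8 changed (2 had an unadjusted limma p under 0.05), with sums of 34025 to 42617 FPKM in Znf750_cKO and 29738 to 38946 FPKM in Control. Of 8 tested markers of Langerhans and other antigen-presenting cells 7 fell, with sums of 96.9 to 104 FPKM in Znf750_cKO and 172 to 245 FPKM in Control. Epcam, which keratinocytes also express, gave 81.8 to 92.9 FPKM of the sum in Znf750_cKO and 83.3 to 92.8 FPKM in Control and did not pass; Cd207, the defining Langerhans marker, was at most 0.06 FPKM anywhere. Red cell markers had 1 gene of 3 that fell (Hba-a2), Merkel cell markers 2 of 4 that rose (Krt8, Krt18) and 1 that fell (Chga), inner root sheath markers 1 of 6 that rose (Tchh) and 2 that fell (Krt27, Krt71), and oral-type epithelial markers 2 of 2 that fell (Crnn, Krt78). Krt27, Krt71, Crnn and the antigen-presenting marker H2-Aa were under 1 FPKM in every Znf750_cKO library. They entered the test only through Control and had to be lower in Znf750_cKO. No tested marker of T cells (2 genes), melanocytes (6), fibroblasts (4) or endothelium (1) passed, although 1 T cell and 1 fibroblast marker had an unadjusted limma p under 0.05. In bulk RNA, fewer cells of a type and less RNA per cell cannot be told apart, and the part of these markers in the results below was not tested. Depths estimated from the steps between low values ran from 22.9 to 35.2 M reads (1 M is 1e6 reads) in Znf750_cKO and from 21.4 to 28.3 M in Control.

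Among the 7 members that could be tested 2 rose and 1 fell, where 4.22% of all tested genes were called, 1.11% as higher and 3.10% as lower. Sprr4 entered the test only through its Control libraries and so had to differ. The groups did not overlap for 2 tested members that were higher in Znf750_cKO and 2 that were lower, a pattern that 28.0% of all tested genes showed in either direction, 8.28% with higher and 19.7% with lower values in Znf750_cKO. The median log2 change of the tested members was 0.17, against -0.077 over all tested genes.

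**Figure D1:**
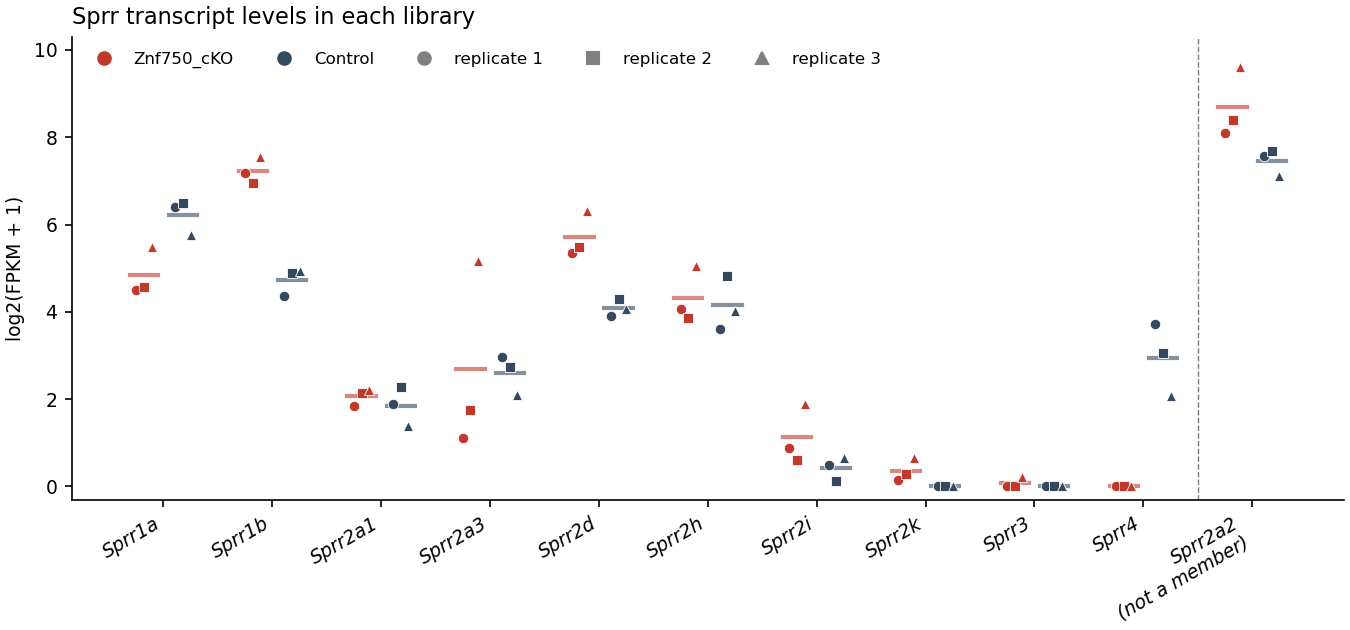
Level of each member, and of Sprr2a2, in each of the 6 libraries, as log2(FPKM + 1) on the vertical axis; red symbols are Znf750_cKO, dark symbols Control, shapes mark the replicate number and bars the group means. Sprr1b and Sprr2d lie higher in all 3 Znf750_cKO libraries, Sprr1a and Sprr4 lower, and the Znf750_cKO symbol of replicate 3 stands highest of its group for each member above 0.

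Sprr1b (chr3:92436809-92438789, minus strand), a cross-bridging envelope precursor, had 143, 124 and 187 FPKM in the Znf750_cKO libraries, against 19.5, 28.4 and 29.5 FPKM in the Control libraries. Every Znf750_cKO library was above every Control library by a wide margin, and the values within each group lay close together. The means were 151 ± 32.3 and 25.8 ± 5.52 FPKM in Znf750_cKO and Control (SD, n = 3 each). On the log2(FPKM + 1) scale the change was 2.51 with a standard error of 0.20 and a 95% interval of 2.03 to 2.98 (limma adjusted p = 0.0021). Leaving out any 1 library kept the call, with adjusted p from 0.0036 to 0.022. With replicate numbers as a block the limma adjusted p was 0.011.

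Sprr1a (chr3:92483952-92485895, minus strand), the other Sprr1 gene, had 21.6, 22.8 and 44.0 FPKM in the Znf750_cKO libraries, against 84.0, 88.9 and 52.9 FPKM in the Control libraries. The groups did not overlap, but replicate 3 of each group came close to the other. The mean was 29.5 ± 12.6 FPKM in Znf750_cKO and 75.2 ± 19.5 FPKM in Control (SD, n = 3 each), 2.55-fold lower in Znf750_cKO. The log2 change of -1.36 (95% interval -2.20 to -0.53) did not pass the threshold with all 6 libraries (limma adjusted p = 0.092). Without Znf750_cKO replicate 3 it was -1.68 with an adjusted p of 0.023, and without replicate 3 of both groups -1.91 with an adjusted p of 0.0019. The other 5 fits with 1 library left out gave adjusted p from 0.091 to 0.254, with a log2 change as small as -1.19, and the replicate block gave 0.156.

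The make-up of the Sprr1 class differed between the groups. Sprr1b made up 86.9, 84.4 and 80.9% of the Sprr1 FPKM in the Znf750_cKO libraries, against 18.8, 24.2 and 35.8% in the Control libraries. The level of Sprr1b was 4.24 to 6.64 times that of Sprr1a in Znf750_cKO and 0.232 to 0.558 times in Control. The sum of both genes had 165, 146 and 231 FPKM in Znf750_cKO, against 103, 117 and 82.4 FPKM in Control. That sum moved less than either gene, with a log2 difference of 0.82, or 0.49 without replicate 3 of both groups. The coding sequences of the pair were 78.4% identical, and their proteins have 144 (Sprr1a) and 153 (Sprr1b) residues with 31.9 and 30.7% proline. Neither transcript shares a single 100-base read sequence with another gene, so full-length reads of either would match the other only with mismatches. Shorter stretches, which trimming of reads may leave, were not compared.

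**Figure D2:**
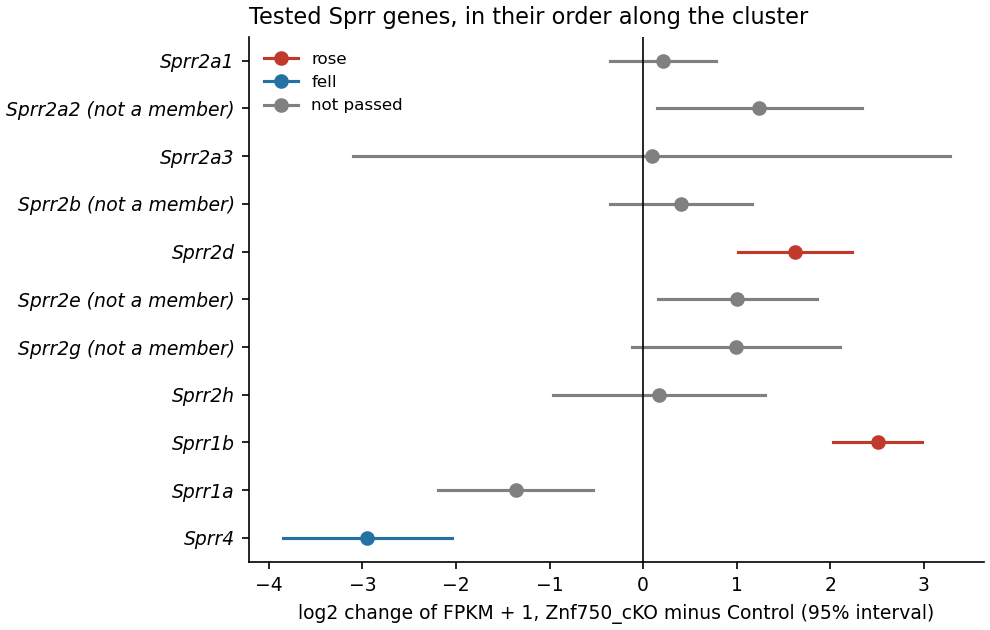
Log2 change of FPKM + 1, Znf750_cKO minus Control, of each tested Sprr gene (horizontal axis, points) with its 95% interval (lines), ordered down the page by position on chromosome 3; red points rose, the blue point fell and grey points did not pass. Sprr1b at 2.51 and Sprr1a at -1.36 are next to each other in this order and lie on opposite sides of 0, and the value of Sprr4 depends on the 1 FPKM that was added.

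Within the Sprr2 class, whose genes are among the first induced in stressed or inflamed epithelia, Sprr2d was the member that rose. Sprr2d (chr3:92339140-92340873, plus strand) had 40.0, 44.1 and 77.7 FPKM in the Znf750_cKO libraries, against 13.9, 18.6 and 15.8 FPKM in the Control libraries. All Znf750_cKO values were above all Control values, and Znf750_cKO replicate 3 was the highest. The mean was 53.9 ± 20.7 FPKM in Znf750_cKO and 16.1 ± 2.35 FPKM in Control (SD, n = 3 each), a log2 change of 1.63 with a standard error of 0.26 and a 95% interval of 1.02 to 2.24 (limma adjusted p = 0.024). The call was lost without Znf750_cKO replicate 2 (adjusted p = 0.056) and without Control replicate 1 (0.092), 2 (0.078) or 3 (0.080), while the log2 change stayed between 1.34 and 1.81 in all 6 such fits; with no filter on low values the adjusted p was 0.081.

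Sprr2h (chr3:92385685-92387324, plus strand), further along the same run of genes, had 15.7, 13.4 and 32.0 FPKM in Znf750_cKO, against 11.1, 27.4 and 15.2 FPKM in Control. The groups overlapped (limma log2 change 0.17, 95% interval -0.96 to 1.31, adjusted p = 0.89), and the sign turned to -0.19 without Znf750_cKO replicate 3. The level of Sprr2d was 2.54, 3.29 and 2.43 times that of Sprr2h in the Znf750_cKO libraries, against 1.26, 0.681 and 1.03 times in the Control libraries, so within each Znf750_cKO library Sprr2d led by more than in any Control library. The coding sequences of Sprr2d and Sprr2h were 71.9% identical, and their proteins had the highest proline shares of the members, 41.2% of 85 residues in Sprr2d and 42.6% of 108 in Sprr2h.

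Sprr2a1 (chr3:92215799-92221911, plus strand) had 2.57, 3.40 and 3.63 FPKM in Znf750_cKO, against 2.68, 3.89 and 1.60 FPKM in Control. Sprr2a3 (chr3:92285417-92291405, plus strand) had 1.17, 2.39 and 35.1 FPKM in Znf750_cKO, against 6.76, 5.69 and 3.24 FPKM in Control. Both overlapped between the groups, and for Sprr2a3 a single library, Znf750_cKO replicate 3, stood above all others while the other two Znf750_cKO libraries were the lowest of the 6. The log2 change was 0.21 for Sprr2a1 (95% interval -0.35 to 0.78, limma adjusted p = 0.68) and 0.090 for Sprr2a3 (95% interval -3.10 to 3.29, adjusted p = 0.98), and without replicate 3 of both groups that of Sprr2a3 was -1.41 (adjusted p = 0.038).

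The levels of Sprr2a1, Sprr2a2 and Sprr2a3 are uncertain one by one. The transcripts of Sprr2a1 and Sprr2a2 share 92.5% (Sprr2a1) and 92.8% (Sprr2a2) of their 100-base sequences with another Sprr gene, and Sprr2a3 shares 36.2%, so the counting had to divide reads between them. The coding sequences of Sprr2a1 and Sprr2a2 were 100% identical, and those of Sprr2a1 and Sprr2a3 98.8%. The annotated span of Sprr2a2 (chr3:92215920-92256724, plus strand) overlaps that of Sprr2a1, and their promoter windows have the same sequence. Sprr2a2, which is not among the members, was listed at 273, 333 and 782 FPKM in Znf750_cKO, against 188, 205 and 138 FPKM in Control, the most abundant Sprr transcript in each library. Its groups did not overlap, but its log2 change of 1.24 did not pass (limma adjusted p = 0.19). The sum of the 3 Sprr2a genes should depend less on how shared reads were divided among them, since their longest transcripts are of like length (3003, 2867 and 2880 bases for Sprr2a1, Sprr2a2 and Sprr2a3). Sprr2a2 and Sprr2a3 have 2 annotated transcripts each, and the shorter ones were not compared. It was 277, 339 and 821 FPKM in Znf750_cKO, against 198, 215 and 142 FPKM in Control, again with no overlap, a log2 difference of 1.22 that was 0.75 without Znf750_cKO replicate 3 and 0.57 without replicate 3 of both groups.

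Sprr2i (chr3:92407991-92409271, plus strand) had 0.84, 0.53 and 2.69 FPKM in Znf750_cKO, against 0.41, 0.09 and 0.57 FPKM in Control, and its groups overlapped. Sprr2k (chr3:92432582-92433925, plus strand) had 0.11, 0.21 and 0.57 FPKM in the Znf750_cKO libraries and was listed at 0 in all 3 Control libraries. At the estimated depths the Sprr2k values stand for 2.09, 2.99 and 7.03 reads, so the difference rests on few reads and was not tested. The 6 Sprr2 members together had 60.4, 64.0 and 152 FPKM in Znf750_cKO, against 34.9, 55.6 and 36.4 FPKM in Control, a log2 difference of 1.00 that was 0.58 without Znf750_cKO replicate 3 and 0.49 without replicate 3 of both groups. The sum of the 6 members depends on how reads were divided, since it holds Sprr2a1 and Sprr2a3 but not Sprr2a2. The 10 Sprr2 genes without the Sprr2a genes had 66.5, 64.7 and 136 FPKM in Znf750_cKO, against 28.8, 50.4 and 35.55 FPKM in Control. Their log2 difference was 1.14. All 13 annotated Sprr2 genes together had 343, 403 and 956 FPKM in Znf750_cKO, against 227, 265 and 178 FPKM in Control, a log2 difference of 1.21. None of these sums overlapped between the groups.

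The other Sprr2 genes that are not members were mostly at a few FPKM or below. Sprr2e had 1.06, 1.91 and 4.68 FPKM in Znf750_cKO, against 0.71, 0.85 and 0.32 FPKM in Control, with no overlap (limma log2 change 1.01, adjusted p = 0.17). All of its Control values were under 1 FPKM, so it entered the test only through Znf750_cKO and could not overlap. Sprr2b had 0.87, 1.10 and 3.48 FPKM in Znf750_cKO, against 0.77, 1.22 and 0.94 FPKM in Control, and overlapped (log2 change 0.40, adjusted p = 0.54). Sprr2g had 4.91, 1.98 and 10.2 FPKM in Znf750_cKO, against 1.78, 1.77 and 2.24 FPKM in Control. Its groups overlapped as well (log2 change 0.99, adjusted p = 0.29). Among the 6 fits with 1 library left out it passed only in that without Znf750_cKO replicate 2 (adjusted p = 0.049; 0.39 to 0.51 in the others); without Znf750_cKO replicate 3 the log2 change was 0.52. Sprr2f had 1.72, 0.67 and 3.49 FPKM in Znf750_cKO, against 0, 0.36 and 0.08 FPKM in Control, and Sprr2j-ps 1.27, 0.78 and 0.83 FPKM in Znf750_cKO, against 0.12, 0.16 and 0.37 FPKM in Control. Neither reached the filter, and their groups did not overlap. Sprr2c-ps, named after its values were seen, was listed at 0 in all 6 libraries. Of the 11 Sprr genes tested in all, 9 had a higher and 2 a lower mean on the log scale in Znf750_cKO, the 2 being Sprr1a and Sprr4. The directions of Sprr2e and Sprr4 were fixed by the filter. Those of Sprr2a1, Sprr2a3, Sprr2h and Sprr2b turned in some fits with libraries left out. Reads of the Sprr2a genes were divided among them, so their directions are not independent. The share of all tested genes with a higher mean was not counted, and the median log2 change of all tested genes was -0.077.

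Sprr3 (chr3:92456502-92458720, minus strand), best known from oral and oesophageal epithelium, was listed at 0 in Znf750_cKO replicates 1 and 2 and in all 3 Control libraries, and at 0.16 FPKM in Znf750_cKO replicate 3, an estimated 4.12 reads. No class difference could be read from it. Of the oral-type markers, the keratins Krt4, Krt13 and Krt76 were likewise near the floor, none above 1.82 FPKM in any library, and Crnn reached at most 1.73 FPKM. The keratin Krt78 of the same list was not, at 15.1 to 19.7 FPKM in Znf750_cKO and 27.7 to 45.8 FPKM in Control.

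Sprr4 (chr3:92500263-92500493, minus strand), the last Sprr gene of the run, had a value of 0 in each Znf750_cKO library. The Control libraries had 12.2, 7.33 and 3.19 FPKM. The groups did not overlap, and Control replicate 1 was the highest. The Control values stand for an estimated 45.5, 20.7 and 9.89 reads, since the annotated transcript has 231 bases, and 1 read would have given 0.215, 0.287 and 0.330 FPKM in the 3 Znf750_cKO libraries. That transcript holds only the coding sequence. If the counting used it, reads from untranslated ends were not counted. The gene passed the test (limma adjusted p = 0.012), with a fitted log2 change of -2.95 that depends on the 1 FPKM added and is not a fold change. Since Sprr4 entered the test only through its Control libraries, its direction was fixed, and the call adds nothing to the values themselves. The call was lost without Znf750_cKO replicate 1 (adjusted p = 0.070) or 2 (0.0503) and without Control replicate 2 (0.060), and with no filter on low values it was 0.055. Its protein stands apart from the other members in composition, with 25.0% glutamine and 17.1% proline in 76 residues.

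All 17 Sprr genes together made up 0.0722, 0.0713 and 0.161% of the summed FPKM in the Znf750_cKO libraries, against 0.0479, 0.0508 and 0.0351% in the Control libraries. In FPKM the totals were 508, 550 and 1187 in Znf750_cKO, against 342, 390 and 264 in Control, with no overlap and a ratio of means of 2.26. Sprr1b held 28.2, 22.5 and 15.7% of the total in Znf750_cKO, against 5.69, 7.30 and 11.2% in Control, and Sprr1a 4.25, 4.15 and 3.70% in Znf750_cKO, against 24.5, 22.8 and 20.1% in Control. The share listed for Sprr2a2, which rests on how reads were divided among the Sprr2a genes, differed far less, at 53.7 to 65.9% in Znf750_cKO and 52.2 to 55.0% in Control.

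**Figure D3:**
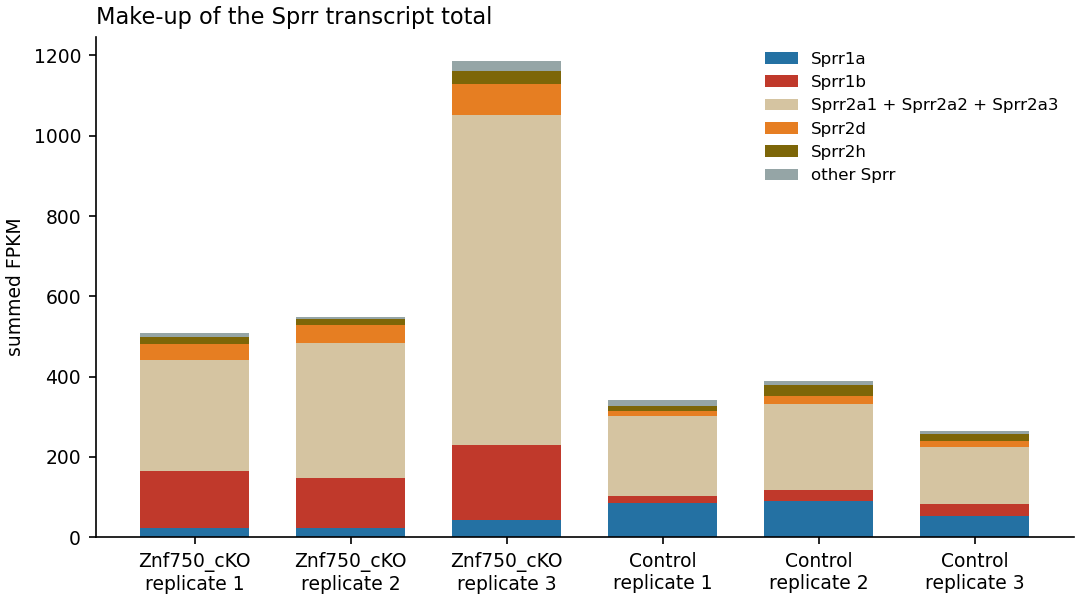
Summed FPKM of all annotated Sprr genes in each library (vertical axis), stacked by gene or gene group, with the 3 Znf750_cKO libraries on the left and the 3 Control libraries on the right. Sprr1b (red) is the larger Sprr1 part in each Znf750_cKO bar and Sprr1a (blue) in each Control bar, and the bar of Znf750_cKO replicate 3 reaches 1187 FPKM.

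Znf750_cKO replicate 3 stood apart for this family. It was the highest of its group for 14 of the 15 Sprr genes above 0 in Znf750_cKO, whereas in Control the highest library was replicate 1 for 2, replicate 2 for 8 and replicate 3 for 4 of 14 genes. Over all genes, too, Znf750_cKO replicate 3 differed, with the most genes above 0 (29087, against 24045 to 27911 in the others). Its estimated depth was the lowest of its group (22.9 M reads). Fos, an AP-1 gene named after its values were seen, had 269, 189 and 558 FPKM in Znf750_cKO, against 78.1, 92.0 and 247 FPKM in Control, and was highest in replicate 3 of both groups. The stress keratin Krt6b, named likewise, had 44.6, 51.4 and 122 FPKM in Znf750_cKO, against 5.69, 13.8 and 10.0 FPKM in Control. Whether what these genes share in that library bears on the Sprr levels was not tested.

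Around the family, gene lists were read against the 4.22% of all tested genes that were called and their median log2 change of -0.077. Of 3 tested transglutaminase genes, whose enzymes cross-link SPRR proteins, 0 passed under limma (1 had an unadjusted p under 0.05), and the median log2 change was -0.20. Tgm1, the main keratinocyte transglutaminase at the membrane, had 44.0, 38.8 and 41.0 FPKM in Znf750_cKO, against 35.6, 48.2 and 43.1 FPKM in Control (log2 change -0.026, 95% interval -0.32 to 0.27, adjusted p = 0.94). The groups overlapped.

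Among 20 other cornified envelope genes 2 rose and 2 fell, with a median log2 change of 0.034. Ivl encodes involucrin, the glutamine-rich scaffold to which SPRR proteins are bound, and lies within the same complex; it had 182, 143 and 130 FPKM in Znf750_cKO, against 32.0, 63.6 and 37.9 FPKM in Control (log2 change 1.79, limma adjusted p = 0.022). Its groups did not overlap, but it lost the call with the replicate block (adjusted p = 0.058), without replicate 1 or 2 of Znf750_cKO, without replicate 1 or 3 of Control and without replicate 3 of both groups (0.0505 to 0.087). Tchh, trichohyalin, a cross-linked protein of the hair root sheath, had 110, 87.1 and 43.8 FPKM in Znf750_cKO, against 13.3, 16.4 and 12.9 FPKM in Control (log2 change 2.33, adjusted p = 0.027), and passed only 1 of the 6 fits with 1 library left out, that without Znf750_cKO replicate 3. Its groups did not overlap.

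Scel, sciellin, another transglutaminase substrate of the envelope, had 22.6, 16.4 and 16.8 FPKM in Znf750_cKO, against 45.1, 37.1 and 28.0 FPKM in Control (log2 change -0.94, limma adjusted p = 0.042). Krt80, a keratin of differentiating epithelia, had 40.8, 39.4 and 46.3 FPKM in Znf750_cKO, against 68.9, 70.2 and 56.1 FPKM in Control (log2 change -0.61, adjusted p = 0.035, 0.069 with the replicate block). Neither overlapped between the groups. With 1 library left out Scel passed only without Control replicate 3 and Krt80 only without replicate 3 of either group, and under median-ratio scaling neither passed; Scel was also lost under the other two scalings and without robust variances (adjusted p 0.054 to 0.065). Of a list of 5 non-Sprr genes next to or among the Sprr genes (Ivl, Lor, Prr9, Lelp1, Smcp) 3 were tested, and Ivl was the 1 that passed; Prr9, named after its values were seen, had a log2 change of -1.36 (adjusted p = 0.11).

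**Figure D4:**
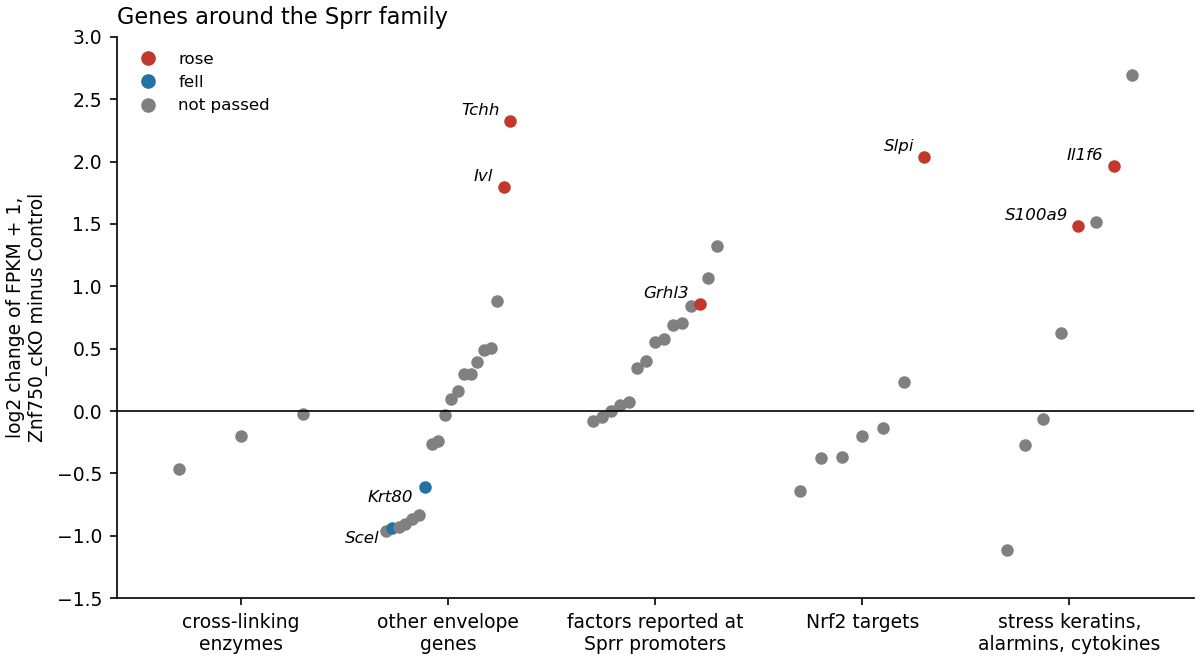
Log2 change of FPKM + 1, Znf750_cKO minus Control (vertical axis), of each tested gene in 5 lists around the Sprr family, one point a gene and sorted within its list; red points rose, blue points fell and grey points did not pass. No cross-linking enzyme passed. Of the 15 factors reported at Sprr promoters 13 lie above 0, with Jund, Pou2f3 and Fosl1 close to it, and Grhl3 passed in the fit shown.

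Of 15 transcription factors with reported action on Sprr promoters 1 rose and 0 fell, while 13 had a log2 change above 0, and the median was 0.55. The 13 include Jund (0.00022), Pou2f3 (0.049) and Fosl1 (0.071), which hardly differed from 0. Fos, Fosb, Jun and Junb were each highest in Znf750_cKO replicate 3, so their directions are not independent. The share of all tested genes above 0 was not counted, so the 13 show no joint rise. The number called was 3 with the replicate block, 4 under median-ratio scaling, 2 under either other scaling, 2 without Control replicate 3 or without replicate 3 of both groups, and 0 with no filter on low values. Grhl3, a grainyhead factor of barrier formation, had 40.6, 35.3 and 32.9 FPKM in Znf750_cKO, against 18.6, 19.8 and 20.1 FPKM in Control, with no overlap (log2 change 0.86, limma adjusted p = 0.0087), and it passed in each fit with 1 library left out. Of 7 tested targets of Nrf2, a stress factor with reported action on Sprr2 genes in mouse skin, 1 rose, and the median was -0.20. Slpi, a secreted inhibitor of leukocyte proteases, had 5.29, 3.49 and 5.60 FPKM in Znf750_cKO, against 0.18, 0.60 and 0.44 FPKM in Control, with no overlap (log2 change 2.03, adjusted p = 0.0041). It passed in all 6 fits with 1 library left out, which kept the same tested genes. Its Control values were all under 1 FPKM, so it entered the test only through Znf750_cKO and had to be higher there.

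Of 8 tested stress keratins, alarmins and interleukin-1 genes 2 rose, with a median log2 change of 1.05. S100a9, an alarmin subunit, had 8.95, 6.10 and 10.2 FPKM in Znf750_cKO, against 1.45, 2.92 and 2.77 FPKM in Control, with no overlap (log2 change 1.48, limma adjusted p = 0.019; 0.090 without Znf750_cKO replicate 1 and 0.051 without Control replicate 1). Il1f6, an interleukin-36 cytokine, had 37.1, 34.9 and 44.6 FPKM in Znf750_cKO, against 6.49, 16.8 and 6.82 FPKM in Control, also with no overlap (log2 change 1.97, adjusted p = 0.043, 0.071 with the replicate block), and it passed only without Control replicate 2 among the 6 fits with 1 library left out and missed the threshold without replicate 3 of both groups (0.20). Of 7 layer markers 1 rose: Krt2, a keratin of the upper spinous and granular layers, had 263, 334 and 172 FPKM in Znf750_cKO, against 0.20, 0.30 and 0.29 FPKM in Control (log2 change 7.62, adjusted p = 1.4e-05). Like Slpi, it entered the test only through Znf750_cKO and had to be higher there. With no filter on low values, Slpi and Krt2 were the 2 genes of these lists that passed.

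For each called member, the 3 genes outside the family whose pattern over the 6 libraries was most like it were found among 11922 genes with a mean of at least 2 FPKM, by the root mean square difference of log2(FPKM + 1) after each gene was centred. Nearest to Sprr1b were Slc15a3, a peptide and histidine transporter (0.243), Slpi (0.270) and 1700020L24Rik (0.283). Nearest to Sprr2d were Epgn, an epidermal growth factor receptor ligand (0.236), the stress keratin Krt6a (0.244) and the transcription factor gene Bhlhe40 (0.247). Krt6a, at 38.3, 34.0 and 105 FPKM in Znf750_cKO and 15.6, 21.3 and 16.0 FPKM in Control, shared the high Znf750_cKO replicate 3 but did not pass the test (log2 change 1.51, limma adjusted p = 0.16).

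Nearest to Sprr4 were Cd74 (0.248), H2-Aa (0.298) and Ctss (0.337), which serve antigen presentation on class II molecules and stand in the antigen-presenting cell list above. Cd74 had 2.03, 2.16 and 3.08 FPKM in Znf750_cKO, against 35.0, 21.2 and 16.1 FPKM in Control. It was picked for its likeness to Sprr4, so the like order of their Control values is no separate result. The red cell marker Hba-a2 had the same order in Control (20.4, 13.9 and 11.6 FPKM). The part of antigen-presenting cells in the Sprr4 difference was not tested.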

How the data were processed

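Per the labels' protocols, cells were freed from back skin epidermis, poly(A) RNA was selected and 100-base single reads were sequenced; the kit is not stated to keep strand, so antisense reads cannot be told apart. The authors deposited 1 FPKM value per Ensembl gene and library, per the file headers. STAR 2.5.2a, RSEM 1.2.28, Trim Galore 0.4.5, cutadapt 1.15, and DESeq2 are named per the submitters' processing notes, with builds GRCm38 and mm10; the role of each step and the annotation release are not stated there. No counts were used. The members and gene lists were chosen with earlier results of these data known.

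Symbols, coordinates and coding sequences came from GENCODE M21 (55227 of 55487 identifiers matched). Genes with at least 1 FPKM in at least 3 libraries were tested with limma 3.58.1 (R 4.3.3; trend and robust variances) on log2(FPKM + 1), which understates changes of low genes, in 1 fit with group as its only term. P-values were adjusted by Benjamini-Hochberg over all tested genes, at a threshold of 0.05, and the fit was checked on simulated data. Class sums and ratios were given per library without a test. Depth was estimated from the steps between low values of genes with 1 transcript, since 1 read is worth a fixed amount per length; at the estimate 70.7% to 79.5% of those values lay within 0.1 of a whole read, against medians of 12.1% to 14.3% over other depths, and read numbers derived from it are estimates that carry counting error.

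Shared reads were counted as distinct 100-base stretches of the annotated transcripts that another gene also holds. Promoter windows for 14 of the 17 Sprr genes came from the RefSeq table of GRCm38.p6.

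The named genes were every member, Zfp750, the other Sprr genes, up to 3 called genes per list and direction or else the most abundant one, and the 3 genes most like each called member. Same-numbered libraries deviated together from their group means (correlations 0.306, 0.165 and 0.477, each above 0.1), so the numbers may pair the samples. Znf750_cKO replicate 2, however, correlated more with Control replicate 1 (0.24) than with its own number. Such a pairing comes from the data alone, since no label explains the numbers. The main fit had no block and took no account of it, and the calls of Ivl, Krt80 and Il1f6 were lost with the block. Alternatives were other pseudocounts (0.1, 0.5), filters, scalings, variances, the replicate block, and libraries left out.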

Additional observations from a re-analysis of the deposited data

How the results depend on the processing

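Sprr1b passed in all 6 fits with 1 library left out and in the other 9 alternatives with all 6 libraries. With no filter on low values 85 genes changed in all, 1 member (Sprr1b) and 2 genes of the surrounding lists, against 577, 3 and 9; with a filter on a mean of 2 FPKM 377 genes changed. With 1 library left out, 100 to 356 genes changed, 1 to 4 members and 3 to 9 list genes; the lowest count of members came without Znf750_cKO replicate 2 and without Control replicate 2. Without replicate 3 of both groups 5 members changed, and the log2 difference of the Sprr1 sum was 0.49. Scaling by median ratios gave 258 genes that rose and 295 that fell, against 152 and 425. The replicate block gave 136 and 256, called the same 3 members (adjusted p 0.011 for Sprr1b, 0.044 for Sprr2d and 0.035 for Sprr4), removed the calls of Ivl, Krt80 and Il1f6, and raised the calls among the 15 factors reported at Sprr promoters to 3, against 1, for 8 list genes in all. Signs turned for Sprr2a1 (log2 change -0.023 to 0.43 with 1 library left out, the lowest without Control replicate 3, and -0.098 without replicate 3 of both groups), Sprr2a3 (-0.085 with a pseudocount of 0.1, -1.15 to 0.87 with 1 left out, below 0 without replicate 3 of either group, -1.41 without replicate 3 of both), Sprr2h (-0.19 to 0.51 with 1 left out, below 0 without Znf750_cKO replicate 3 or Control replicate 1, -0.25 without replicate 3 of both) and Sprr2b (-0.0004 without replicate 3 of both). None of these 4 genes passed with all libraries, and the causes were not tested. With 3 libraries a group and FPKM in place of counts, members under 1 FPKM could not be compared.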
